A study of Mus musculus with 16 samples.

Results

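The genes of IL-33 and its receptor pathway were followed in abdominal tumors of mice treated with IL-33 or with vehicle. The 8 genes were chosen by name, whatever their values: Il33, the receptor genes Il1rl1 and Il1rap, the receptor inhibitor Sigirr, and the signaling genes Myd88, Irak1, Irak4 and Traf6. All 8 were found among the 22298 genes counted and all were tested. RNA-seq had been performed on 16 tumors, 8 each of the vehicle group, which received PBS, and the IL-33 treatment group. All tumors grew in 615-line mice of 6 weeks and of wild-type genotype after intraperitoneal injection of 500000 MFC cells, a line from mouse forestomach carcinoma labelled as gastric cancer, and both groups carried the same cells. IL-33 protein was injected intraperitoneally at 20 µg/kg every 2 days, so the counts measured the transcripts of the tumor and not the injected cytokine. The labels did not say whether each tumor came from a mouse of its own. The study's survival experiment in this abdominal model had more than 8 mice a group. The methods give the model with 4 or 5 mice a group, fewer than the 8 tumors, so that tumors may share a mouse. The p-values then cover only the spread between the tumors sequenced, and they would be too small where tumors shared a mouse.

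IL-33 belongs to the cytokines of the IL-1 family and is stored in the nucleus of epithelial, stromal and endothelial cells and released when they are damaged. Outside the cell it binds ST2, the product of Il1rl1, which then pairs with the accessory chain IL-1RAcP, the product of Il1rap. The paired receptor recruits the adaptor MyD88 and the kinases IRAK4 and IRAK1, and these engage the ubiquitin ligase TRAF6, from which the NF-κB and MAP kinase branches start. Mast cells, basophils, group 2 innate lymphoid cells (ILC2) and part of the regulatory T cells are well known carriers of ST2. A soluble form of ST2, made from the same gene, binds IL-33 without signaling.

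Total counts ran from 14139268 to 24290794 per vehicle tumor and from 16569613 to 24288893 per IL-33 tumor. Levels are given as CPM, counts scaled to a total of 1000000 per tumor. A pair of tumors stood apart. IL-33 replicate 7 held 1560 CPM of 6 female reproductive tract transcripts, against 15.4 to 25.8 CPM in the other 15 tumors, 1002 CPM of 7 endothelial transcripts against at most 240.2 CPM, and Epcam at 98.8 CPM. Vehicle replicate 4 had the lowest normalization factor (0.64, against 0.895 to 1.24) and the lowest sum of 6 leukocyte transcripts, 32.4 CPM. The labelled cell type was checked against 8 epithelial genes. Over all tumors the keratin gene Krt8 lay between 181 and 975 CPM and the keratin gene Krt19 between 44.5 and 690 CPM. Cdh1 had a median of 1.91 CPM with vehicle and 2.29 CPM with IL-33. The medians of Epcam, Krt18, Krt5, Krt14 and Krt7 were under 1 CPM. Macrophage transcripts were found in every tumor, with a summed level of 591 CPM or more over 9 genes.

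Il33 and Il1rl1 were among the most abundant transcripts of these tumors, in the vehicle group as in the IL-33 group, and for neither did a difference between the groups pass the test. Il33 (chr19:29925114-29960718, plus strand, GRCm38) lay at 155 CPM in the lowest vehicle tumor, 393 CPM at the median and 592 CPM in the highest. In the IL-33 group it lay at 116 CPM in the lowest tumor, 314 CPM at the median and 958 CPM in the highest. The groups overlapped, but the IL-33 group reached both lower and higher than the vehicle group. In it 1 tumor, replicate 7, lay below every vehicle tumor and 1, replicate 6, above every vehicle tumor. With vehicle the mean was 366 ± 152 CPM (SD, n = 8), and with IL-33 it was 386 ± 270 CPM (SD, n = 8). The log2 fold change was 0.08 with an SE of 0.41 and an adjusted p of 0.973 by the quasi-likelihood test of edgeR. The interval of 2 SE on either side ran from 0.601-fold to 1.85-fold, and a two-sided exact permutation test over the 12870 assignments of tumors to groups gave p = 0.861. Of the 8 IL-33 tumors, 4 lay above the vehicle mean and 4 below it.

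Il1rl1 (chr1:40429570-40465415, plus strand) encodes both the receptor and the soluble decoy, and the counts per gene did not tell these forms apart. It lay at 489 CPM in the lowest vehicle tumor, 618 CPM at the median and 1318 CPM in the highest. In the IL-33 group the lowest tumor had 37.1 CPM, the median was 679 CPM and the highest tumor had 905 CPM. The low value was that of IL-33 replicate 7, whose 651 reads on Il1rl1 leave little counting error, and the next lowest IL-33 tumor had 395 CPM. The log2 fold change was −0.33 with an SE of 0.42 (adjusted p = 0.838, edgeR) and it was −0.15 with an SE of 0.23 (adjusted p = 0.965, edgeR) without IL-33 replicate 7. Without that tumor the interval of 2 SE ran from 0.656-fold to 1.24-fold. The exact permutation test gave p = 0.412 with all tumors and p = 0.823 without IL-33 replicate 7.

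The sequences upstream of the start sites of Il33 and Il1rl1 are shown because these were the most abundant members and because GATA3, a factor that binds GATA motifs, stands in the study's question. RefSeq (GRCm38.p6) gave 2 start sites for each gene, and 7 of the 8 members had an entry, Sigirr being the exception. Each window holds the 250 bases before the start on the plus strand, with GATAA, or its reverse complement TTATC, in capitals. Only this form was searched, without regard to the bases beside it. Other forms of the GATA motif, such as GATAG, are left unmarked, and a marked match is not a shown GATA3 site.
Il33, first start, chr19:29924863-29925112, before the gene: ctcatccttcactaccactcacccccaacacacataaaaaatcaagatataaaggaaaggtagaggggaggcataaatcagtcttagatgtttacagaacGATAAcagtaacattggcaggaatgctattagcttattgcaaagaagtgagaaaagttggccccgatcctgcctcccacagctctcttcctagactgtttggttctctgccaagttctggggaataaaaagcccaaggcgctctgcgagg
Il33, second start, chr19:29945540-29945789, in an intron: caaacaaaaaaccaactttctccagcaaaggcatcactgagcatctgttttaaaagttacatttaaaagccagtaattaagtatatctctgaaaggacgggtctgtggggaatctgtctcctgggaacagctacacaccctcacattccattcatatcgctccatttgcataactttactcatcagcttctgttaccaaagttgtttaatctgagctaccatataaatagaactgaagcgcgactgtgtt
Il1rl1, first start, chr1:40429320-40429569, before the gene: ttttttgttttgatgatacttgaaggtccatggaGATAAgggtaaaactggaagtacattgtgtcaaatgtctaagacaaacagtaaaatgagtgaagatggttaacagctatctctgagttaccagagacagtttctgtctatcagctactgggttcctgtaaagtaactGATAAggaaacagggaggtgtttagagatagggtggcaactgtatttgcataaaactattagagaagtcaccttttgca
Il1rl1, second start, chr1:40439379-40439628, in an intron up to the last 2 bases: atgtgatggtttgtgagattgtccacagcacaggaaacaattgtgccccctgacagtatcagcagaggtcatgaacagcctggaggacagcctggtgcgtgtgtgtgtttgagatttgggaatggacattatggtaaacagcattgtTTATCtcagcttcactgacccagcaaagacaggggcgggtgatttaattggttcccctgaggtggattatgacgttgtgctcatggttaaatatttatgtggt
The first Il1rl1 window held GATAA at 2 places on the plus strand and the second, 10059 bases downstream, held it once on the minus strand. The first Il33 window held it once and the second, 20677 bases downstream, not at all. Over all 32851 RefSeq windows of this length, 22.6% held the motif, so its presence is common and no more than a description. The counts per gene did not show which start was used.

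**Figure D1:**
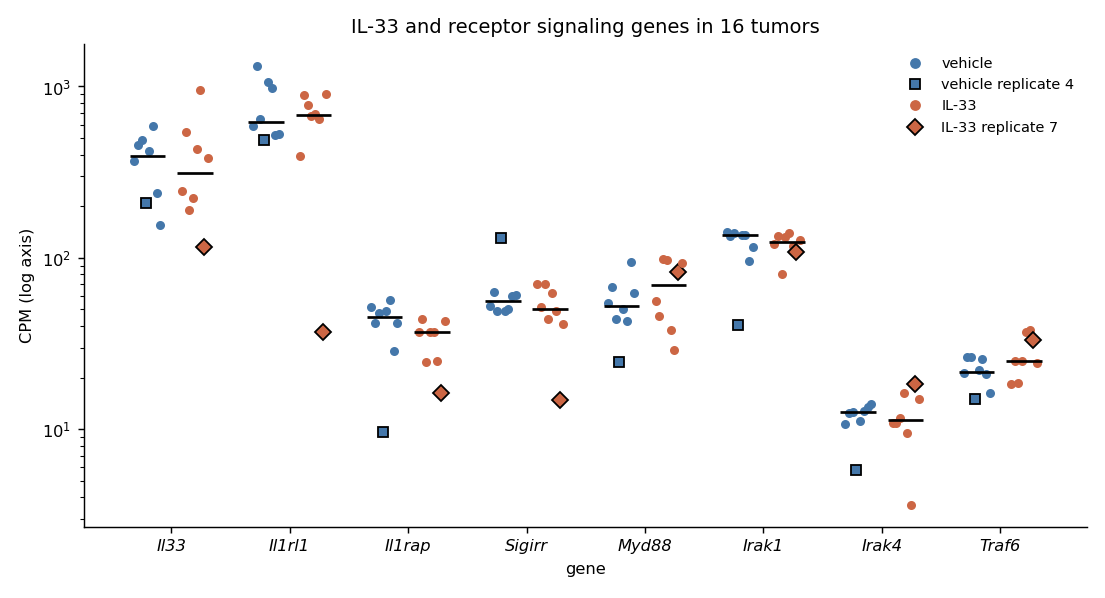
CPM on a log axis for the 8 genes, 1 point per tumor, vehicle in blue and IL-33 in orange, with the group median as a bar. The groups overlap for every gene, and IL-33 replicate 7 (diamond) and vehicle replicate 4 (square) lie at the edge of several genes, with Il1rl1 at 37.1 CPM and Sigirr at 130.4 CPM.

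For the accessory chain and the inhibitor of the receptor, no difference between the groups passed the test either. Il1rap (chr16:26581704-26730117, plus strand) lay at 9.69, 44.9 and 56.9 CPM in the lowest, median and highest vehicle tumor. In the IL-33 group these values were 16.3, 37.0 and 44.0 CPM. The lowest value of each group belonged to a tumor that stood apart, vehicle replicate 4 and IL-33 replicate 7. In the IL-33 group, 6 of 8 tumors lay below the vehicle mean. The log2 fold change was −0.34 with an SE of 0.26 (adjusted p = 0.681, edgeR). Without both tumors it was −0.34 with an SE of 0.17 (unadjusted p = 0.0585, adjusted p = 1.00, edgeR). In CPM, without the normalization factors of that test, all of the 7 remaining IL-33 tumors then lay below the vehicle mean of 45.4 CPM. Replicate 2 was just under it at 44.0 CPM, and 2 of the 7 lay below every remaining vehicle tumor. The exact permutation test without both gave p = 0.0740.

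Sigirr (chr7:141091175-141100572, minus strand) encodes a single-domain member of the receptor family that dampens signaling through ST2 and the IL-1 receptor. It lay at 48.9, 56.3 and 130.4 CPM in the lowest, median and highest vehicle tumor, and at 14.8, 50.4 and 70.8 CPM in the IL-33 group. Its highest value was that of vehicle replicate 4 and its lowest that of IL-33 replicate 7. The other 7 vehicle tumors lay between 48.9 and 62.8 CPM. The log2 fold change of −0.53 with an SE of 0.35 (adjusted p = 0.628, edgeR) was the lowest of the 8 genes, and without both tumors it was 0.06 with an SE of 0.14. The sign of the Sigirr difference therefore depended on these tumors, and its p was above the threshold with and without them.

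For the 4 signaling genes below the receptor, no difference between the groups passed the test. Myd88 (chr9:119335934-119341411, minus strand), the adaptor, lay at 24.6, 52.2 and 95.0 CPM in the lowest, median and highest vehicle tumor and at 29.2, 69.6 and 98.9 CPM in the IL-33 group. Its log2 fold change was 0.21 with an SE of 0.23 (adjusted p = 0.801, edgeR), and 5 of the 8 tumors given IL-33 exceeded the vehicle mean. Of its exon bases, 290 (11.3%) overlapped those of Acaa1a on the other strand, and the use of strand in counting was not stated. Within the IL-33 group the values were wide apart, with replicates 3, 4, 7 and 8 between 82.9 and 98.9 CPM and the other 4 tumors at 56.2 CPM or less.

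Irak1 (chrX:74013914-74023918, minus strand), the kinase that passes the signal to TRAF6, had the lowest SD of log2 CPM (TMM factors) of the 8 genes over the 16 tumors, 0.35 beside 0.37 for Traf6. It lay at 40.5, 135 and 141 CPM in the lowest, median and highest vehicle tumor and at 80.4, 124 and 139 CPM in the IL-33 group. The lowest vehicle value was that of replicate 4, and the other 7 vehicle tumors lay between 95.6 and 141 CPM. Its log2 fold change was −0.01 with an SE of 0.17 (adjusted p = 0.992, edgeR), and the interval of 2 SE ran from 0.784-fold to 1.26-fold.

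Irak4 (chr15:94543643-94581815, plus strand), the first kinase to bind MyD88, was the lowest of the 8. It lay at 5.80, 12.6 and 14.04 CPM in the lowest, median and highest vehicle tumor and at 3.62, 11.3 and 18.3 CPM in the IL-33 group. The IL-33 tumors reached both higher and lower than the vehicle tumors, with replicate 6 lowest and replicate 7 highest. It shared 395 exon bases (7.87%) with Twf1 on the other strand. Its log2 fold change was −0.05 with an SE of 0.21 (adjusted p = 0.966, edgeR).

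Traf6 (chr2:101678429-101701669, plus strand), the ubiquitin ligase at the end of this chain, had the highest log2 fold change of the 8 genes, 0.26 with an SE of 0.18 (adjusted p = 0.638, edgeR). It lay at 14.9, 21.6 and 26.6 CPM in the lowest, median and highest vehicle tumor and at 18.4, 25.0 and 37.7 CPM in the IL-33 group. IL-33 replicates 5, 6 and 7, at 33.2 to 37.7 CPM, were above every vehicle tumor and the other 5 were within their range. The exact permutation test gave p = 0.109, and without IL-33 replicate 7 the log2 fold change was 0.27 (adjusted p = 0.964, edgeR).

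None of the 8 genes passed an adjusted or an unadjusted p of 0.05 by edgeR. Over all 16817 genes tested, 0% passed the adjusted p and 11.2% the unadjusted p, 1680 of them higher and 196 lower in the IL-33 group. DESeq2 with its own size factors gave 424 higher and 267 lower at the unadjusted p and none at the adjusted p, and limma voom 522 and 444 and none. By limma voom, Il1rap alone of these genes passed the unadjusted threshold (unadjusted p = 0.0371, adjusted p = 0.818, limma). Without IL-33 replicate 7, of 15803 genes 0% passed the adjusted p and 4.12% the unadjusted p, 289 higher and 362 lower, and again none of the 8 was among them. The median log2 fold change of the 8 genes was −0.03, with 3 above 0 and 5 below, beside a median of 0.06 over all genes. Without IL-33 replicate 7 these medians were −0.03 and −0.01. The widest interval was that of Il1rl1 with all tumors, 0.442-fold to 1.43-fold. In bulk tumors, fewer cells that make a transcript and less transcript per cell cannot be told apart.

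**Figure D2:**
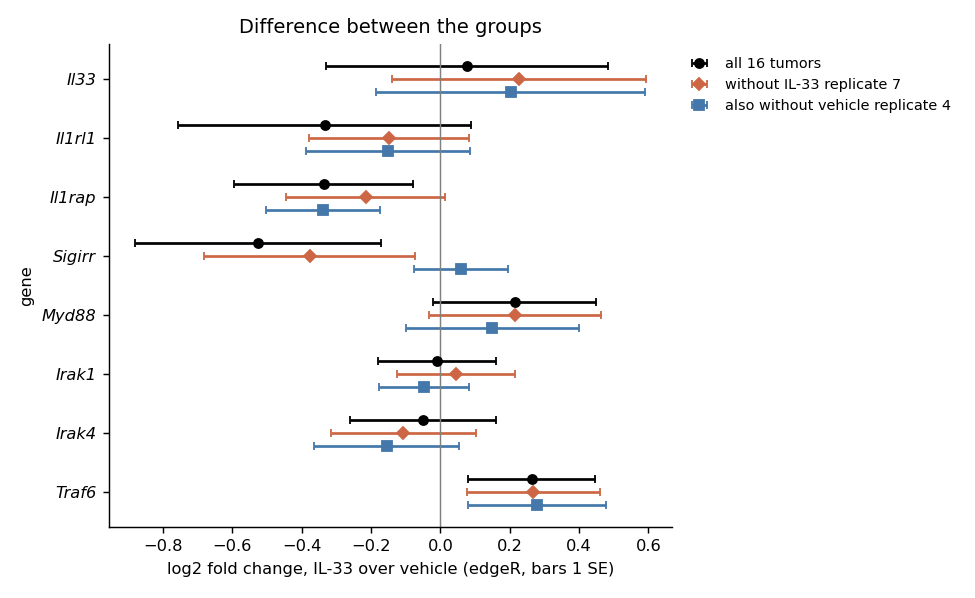
Log2 fold change of IL-33 over vehicle from edgeR, with bars of 1 SE, for all 16 tumors (black), without IL-33 replicate 7 (orange) and also without vehicle replicate 4 (blue). Sigirr moved from −0.53 to 0.06 when both tumors were left out, while Traf6 stayed between 0.26 and 0.28.

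Levels of different genes were compared per kilobase of annotated exon. Over the 16 tumors the median level per length was 130 CPM per kilobase for Il33 and 95.6 for Il1rl1, which placed them at a median rank of 332 and 459 among 22255 genes. In IL-33 replicate 7 the rank of Il1rl1 was 7999. A middle tier held Irak1 at 27.7, Myd88 at 21.4 and Sigirr at 17.1 CPM per kilobase. Il1rap at 3.47, Traf6 at 3.14 and Irak4 at 2.41 CPM per kilobase formed the lowest tier. The step from Sigirr down to Il1rap was seen in 16 of 16 tumors and that from Il1rl1 down to Irak1 in 15 of 16. Neighbors within a tier were less apart, Il33 lying above Il1rl1 in 11 tumors, Irak1 above Myd88 in 10, Myd88 above Sigirr in 12, Il1rap above Traf6 in 10 and Traf6 above Irak4 in 13. The length used was the union of all annotated exons, so a gene that uses short transcripts reads lower than its true level per length.

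The 2 chains of the receptor were far from equal in transcript level. The ratio of Il1rl1 to Il1rap per kilobase had a median of 29.1 in the vehicle group, with a range from 18.7 to 83.2, and a median of 31.9 in the IL-33 group, with a range from 3.75 to 52.0. It was above 1 in 16 of 16 tumors. The lowest ratio was that of IL-33 replicate 7 and the highest that of vehicle replicate 4, which had the lowest Il1rap. The ratio of the receptor to its inhibitor Sigirr had medians of 5.40 and 5.36, and that of Irak1 to Irak4 medians of 11.4 and 10.3.

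**Figure D3:**
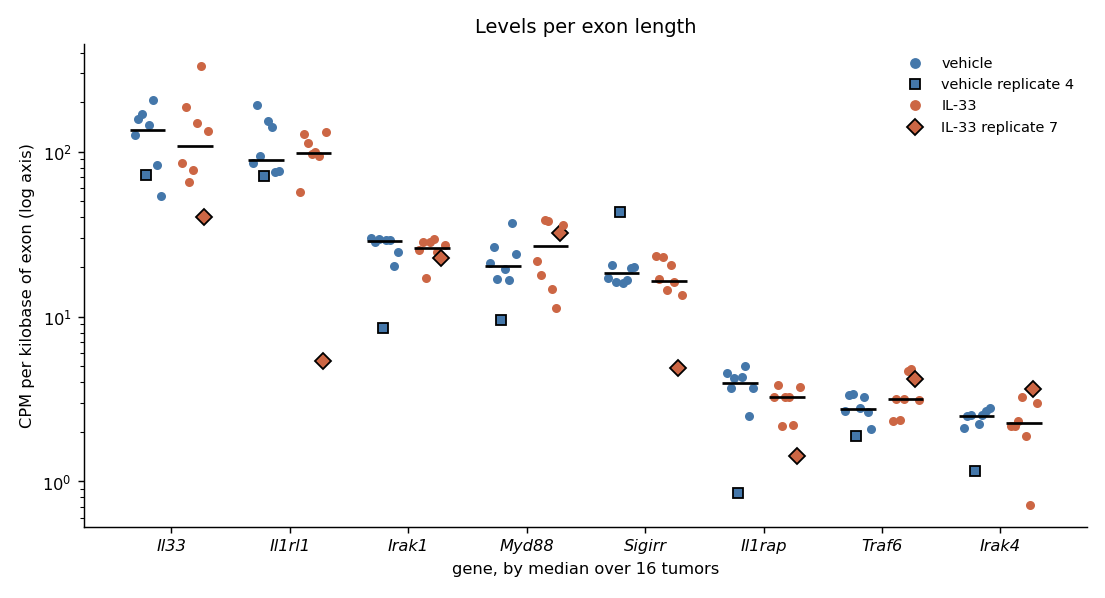
CPM per kilobase of exon on a log axis, genes ordered by their median over 16 tumors, 1 point per tumor with the group median as a bar. Il33 (130) and Il1rl1 (95.6) lie above the other genes in nearly all tumors, and Il1rap, Traf6 and Irak4 lie at 2.41 to 3.47.

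Il1rl1 stands in a cluster of 6 receptor genes of the IL-1 family on chromosome 1, spread over 477627 bases, and it was the highest of them per length in 15 of 16 tumors. Its neighbor Il18r1, which encodes the binding chain of the IL-18 receptor, had a median of only 0.166 CPM per kilobase, lower than Il1rl1 in all 16 tumors. The next gene, Il18rap, which encodes the other chain of the IL-18 receptor, had 12.7 CPM per kilobase, while Il1r2 had 6.71, Il1r1 5.24 and Il1rl2 0.600. In IL-33 replicate 7, Il18rap and Il1rl1 were both at their lowest (1.20 and 5.38 CPM per kilobase), whereas Il1r1, Il1rl2 and Il18r1 had their highest (23.3, 4.21 and 1.09 CPM per kilobase). None of the 5 other receptor genes passed an unadjusted p of 0.05 between the groups. All 5 had log2 fold changes above 0, from 0.27 for Il18rap to 0.88 for Il18r1, as had 9805 of all 16817 genes. Without IL-33 replicate 7 Il1r2, at 0.52 with all tumors, was the highest at 0.68, Il18r1 was at 0.49, Il18rap at 0.45, Il1r1 at −0.05 and Il1rl2 at −0.12.

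**Figure D4:**
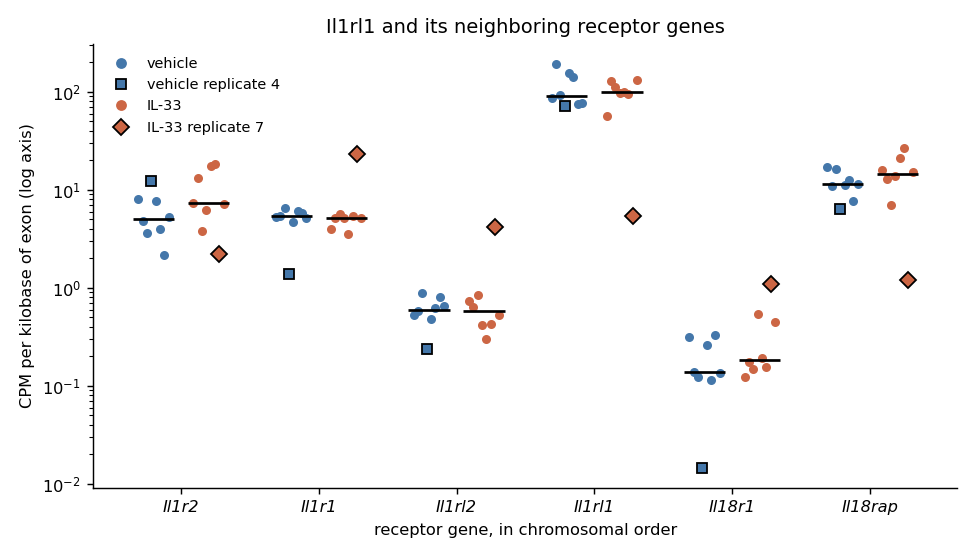
CPM per kilobase of exon on a log axis for the 6 receptor genes of the Il1rl1 cluster in their order on the chromosome, 1 point per tumor with the group median as a bar. Il1rl1 is at a median of 95.6 and its neighbor Il18r1 at 0.166, and the diamond of IL-33 replicate 7 is low for Il1rl1 and Il18rap and high for Il1r1, Il1rl2 and Il18r1.

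The genes also differed in how much they varied between tumors. The SD of log2 CPM over the 16 tumors was 1.22 for Il1rl1, 0.87 for Il33, 0.78 for Sigirr and 0.60 for Il1rap, and it lay between 0.35 for Irak1 and 0.49 for Myd88 for the other 4. The spread of Il1rl1 rested on IL-33 replicate 7, since without it the SD was 0.45. Without vehicle replicate 4 as well, the SD of Sigirr was 0.25 and that of Il1rap 0.36. The spread of Il33 did not rest on these tumors, with an SD of 0.77 over the remaining 14. Among the 876 genes within 1 log2 unit of its level, 94.3% varied less than Il33 over the 16 tumors, these tumors included. On the same measure the share was 98.7% for Il1rl1, 93.7% for Sigirr and between 41.1% and 81.7% for the other genes. Among all 16817 genes 72.0% varied less than Il33, and 79.7% without IL-33 replicate 7.

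Several of the genes varied together from tumor to tumor. Over the 28 pairs, 7 had a Pearson correlation with an adjusted p under 0.05, and 3 of these also a Spearman correlation (permutation tests with 100000 resamples, adjusted over the 28 pairs). How many pairs of other genes would pass in these tumors was not computed, so the 7 are not shown to be particular to the pathway. Genes outside it followed single members closely, such as Tmx4 with Irak1 at rho = 0.98. The closest pair was Il1rap and Irak1, with r = 0.85 (adjusted permutation p = 0.00616) and rho = 0.77 (adjusted permutation p = 0.0168) over 16 tumors. It held in the vehicle group (r = 0.98) and in the IL-33 group (r = 0.76), and r was 0.76 without IL-33 replicate 7 and vehicle replicate 4, the 2 tumors farthest from the median of Il1rap. Myd88 and Irak4 also rose and fell together, with r = 0.64 (adjusted permutation p = 0.0134) and rho = 0.67 (adjusted permutation p = 0.0363), at r = 0.47 in the vehicle group and 0.77 in the IL-33 group. Without the 2 tumors farthest from the median of Myd88 r was 0.72.

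Il33 ran against Myd88 and, in most tumors, with Traf6. For Il33 and Myd88 r was −0.67 (adjusted permutation p = 0.0308) and rho was −0.71 (adjusted permutation p = 0.0231), with r = −0.54 in the vehicle group and −0.71 in the IL-33 group. Without the 2 tumors farthest from the median of Il33, replicates 6 and 7 of the IL-33 group, r was −0.64. With scaling to total counts in place of TMM factors it was −0.51. For Il33 and Traf6 r was 0.62 (adjusted permutation p = 0.0449) and rho was 0.62 (adjusted permutation p = 0.0594). That relation was r = 0.93 in the vehicle group, 0.62 in the IL-33 group and 0.84 over the 15 tumors without IL-33 replicate 7.

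Il33 and its receptor gene Il1rl1 had r = 0.67 (adjusted permutation p = 0.0198) and rho = 0.61 (adjusted permutation p = 0.0594). The correlation was r = 0.70 in the vehicle group, and in the IL-33 group it was 0.69 with replicate 7 and 0.39 without it. Over the 15 tumors without IL-33 replicate 7 r was 0.51, and without the 2 tumors farthest from the median of Il33 it was 0.63. The correlations of Il1rl1 with Il1rap (r = 0.62) and with Sigirr (r = 0.67) rested on IL-33 replicate 7, since without it r was 0.18 and −0.05.

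A further pair passed by rho alone, Il33 with Irak1, at rho = 0.74 (adjusted permutation p = 0.0168) and r = 0.56 (adjusted permutation p = 0.0707). The remaining pairs that passed by r did so by r alone. For Il33 and Irak4 r was −0.65 (adjusted permutation p = 0.0409), rho was −0.46 (adjusted permutation p = 0.198), and r was −0.28 without the 2 tumors farthest from the median of Il33. For Myd88 and Traf6 r was −0.60 (adjusted permutation p = 0.0498), rho was −0.59 (adjusted permutation p = 0.0679), and r was −0.11 with scaling to total counts. In the vehicle group, Sigirr had r = −0.90 with Il1rap and −0.90 with Irak1. Without IL-33 replicate 7 and vehicle replicate 4, over 14 tumors, these values were −0.36 and −0.34.

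**Figure D5:**
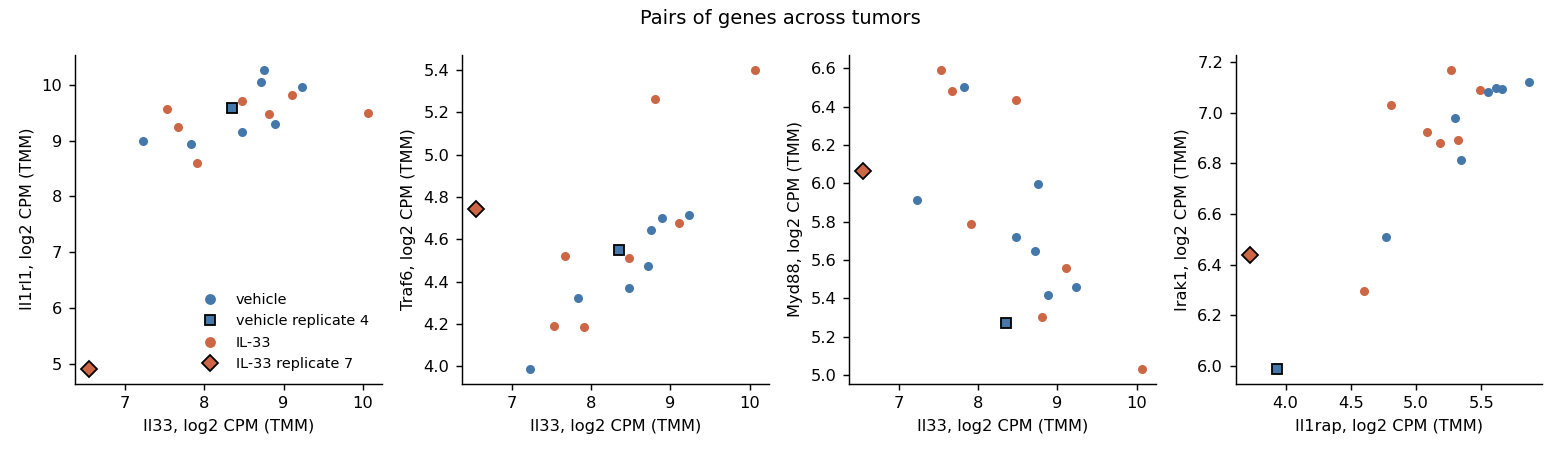
Log2 CPM with TMM factors of 4 pairs of genes, 1 point per tumor, vehicle in blue and IL-33 in orange. Il33 rises with Il1rl1 (r = 0.67) and Traf6 (r = 0.62) and falls against Myd88 (r = −0.67), Il1rap rises with Irak1 (r = 0.85), and IL-33 replicate 7 (diamond) lies off the other points for Il33 with Il1rl1.

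The genes whose levels followed each member most closely were ranked by Spearman correlation over the 16 tumors, among 13109 genes with a mean of at least 1 CPM, as a description. For Il33 these were Tiparp (rho = 0.97), Kdm3a, Pfkp, Tmprss11b and Dusp4, all at 0.95 or above. Tiparp encodes an ADP-ribosyltransferase induced by the aryl hydrocarbon receptor, Kdm3a a histone demethylase, Pfkp a phosphofructokinase of glycolysis and Dusp4 a phosphatase of MAP kinases. For Traf6 they were Prdm1 (rho = 0.96), which encodes the transcription repressor BLIMP1, followed by Arrb1, Pkp2, Zfp36l1 and Galm. For Myd88 they were Lfng (rho = 0.98), Cd5, Otulinl, Rinl and Myo1f, of which Cd5 and Myo1f are known from leukocytes.

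The likeness was lower for Il1rl1, with Ggnbp2 (rho = 0.83), Uaca, Hdac6, S100a9 and Tfe3, and for Irak4, with Adam1a (rho = 0.91), C1s1, Gm45062, Thbd and Ssbp3. For Il1rap the closest genes were Tmem33 (rho = 0.97), Foxk2, Lrp12, Enc1 and Mlh3, and for Irak1 Tmx4 (rho = 0.98), Heatr5a, Stk3, Trappc10 and Xpnpep3. For Sigirr they were Tradd (rho = 0.92), which encodes an adaptor of the TNF receptor, Cdkn2d, Yif1b, Mrpl10 and Setd6.

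Markers of the cells that could carry or make these transcripts were set beside Il33 and Il1rl1, in 22 relations over 11 marker lists. Il33 had an r below 0 with 10 of the 11 lists, and for 8 of them the adjusted permutation p of r was under 0.05. By rho, 1 of the 11 passed, and how often other genes would pass was not computed. The lowest r was that with mast cell and basophil transcripts, −0.81 (adjusted permutation p = 0.00330) and rho = −0.80 (adjusted permutation p = 0.00660). This relation had r = −0.67 in the vehicle group, −0.91 in the IL-33 group, −0.73 without IL-33 replicate 7 and −0.81 without the 2 tumors farthest from the median of that marker list. It was the only relation of the 22 that passed by both r and rho. Against macrophage transcripts Il33 had r = −0.74 (adjusted permutation p = 0.0141) and rho = −0.66 (adjusted permutation p = 0.0734), with −0.68 without IL-33 replicate 7. With ILC2 transcripts r was −0.71, with endothelial transcripts −0.67 and with lymph node stroma −0.64, and without that tumor these values were −0.58, −0.48 and −0.40. With female reproductive tract, fibroblast and regulatory T cell transcripts r was −0.59, −0.56 and −0.56. Leaving out that tumor gave −0.27, −0.28 and −0.66. Against mesothelial transcripts Il33 had r = 0.03, and 0.64 without IL-33 replicate 7.

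Il1rl1 did not rise with the markers of the cells best known for ST2. Its r with mast cell and basophil transcripts was −0.62 (adjusted permutation p = 0.0309), with ILC2 transcripts −0.57 (adjusted permutation p = 0.0322) and with regulatory T cell transcripts −0.05, and without IL-33 replicate 7 these values were −0.39, −0.21 and −0.09. Its strongest relations, with female reproductive tract transcripts (r = −0.93) and endothelial transcripts (r = −0.89), were −0.24 and −0.29 without that tumor. With mesothelial transcripts r was −0.45, and 0.62 without IL-33 replicate 7. The score of that list was a mean of log2 CPM, in which its 5 genes weighed alike, so r is not a relation with its most abundant gene. By level the list was led by Msln, which encodes mesothelin, at 448 to 789 CPM with vehicle and up to 1243 CPM with IL-33. In IL-33 replicate 7 Msln was at 92.5 CPM. In that tumor Wt1, Upk3b and Lrrn4 of the list were instead at their highest, 138.6, 59.8 and 17.8 CPM. In the other tumors they reached at most 3.90, 2.15 and 1.84 CPM, and Upk3b and Lrrn4 had medians under 1 CPM. The remaining gene of the list, Bnc1, was at 10.4 CPM in IL-33 replicate 7. No relation of Il1rl1 passed by rho.

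The defining markers of the ST2-carrying cells were rare in these tumors. Of 11 mast cell and basophil genes, Fcer1a, Ms4a2 and Mcpt8 had medians under 1 CPM, and the summed level ran from 16.8 to 144 CPM with vehicle and, leaving aside 362 CPM in replicate 7, from 13.1 to 48.0 CPM with IL-33. Of 9 ILC2 genes, Klrg1, Il17rb, Icos, Il13 and Il5 had medians under 1 CPM, with a sum of 4.95 to 22.8 CPM in the vehicle group and, leaving aside 57.3 CPM in replicate 7, 6.98 to 19.1 CPM in the IL-33 group. Of 6 regulatory T cell genes, Foxp3 had a median under 1 CPM, with sums of 4.95 to 26.3 and 5.03 to 24.4 CPM. In vehicle replicate 4, where the leukocyte sum was lowest, Il1rl1 was at 489 CPM, the lowest of the 8 vehicle values. This library had a TMM factor of 0.64, and with TMM factors its log2 CPM of Il1rl1 was 9.58, inside the vehicle range of 8.95 to 10.27. Over the 16 tumors the r of Il1rl1 with leukocyte transcripts was 0.10. The part that any of these cells had in the level of Il1rl1 was not tested beyond these values.

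Further genes of the pathway were also tested. Of 20 genes from the inhibitors and ubiquitin enzymes around TRAF6 to the NF-κB and MAP kinases, none passed an adjusted or an unadjusted p of 0.05, and 13 had log2 fold changes above 0 and 7 below, with a median of 0.02 beside 0.06 over all genes. Irak3, which encodes a kinase relative that inhibits the receptor complex, had the largest value with all tumors, 0.40 with an SE of 0.42, but it was at 17.1 CPM in IL-33 replicate 7 and its log2 fold change was 0.20 without that tumor, below 5 other genes of the list. The kinase gene Ikbkb was at 0.29 with an SE of 0.14 (unadjusted p = 0.0565, edgeR), and at 0.23 without that tumor. The lowest values were −0.33 with an SE of 0.21 for Ube2v1, a ubiquitin-conjugating factor that works with TRAF6, and −0.22 with an SE of 0.16 for Tab1. Ube2v1 lay between 205 and 381 CPM in the vehicle group, with a median of 223 CPM, and between 195 and 243 CPM in the IL-33 group, with a median of 215 CPM. In the vehicle group Nfkbia, the inhibitor of NF-κB that is itself a target of it, lay between 27.8 and 77.3 CPM, and in the IL-33 group between 52.7 and 101 CPM. Its medians were 67.0 CPM with vehicle and 70.1 CPM with IL-33, and its log2 fold change was 0.20 with an SE of 0.16 (adjusted p = 0.700, edgeR).

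The p38 and GATA3 arm, which the study followed in macrophages, was measured here in whole tumors through 9 genes. Of these 1 passed an unadjusted p of 0.05, beside 11.2% of all genes. This was Mapk13, a p38 isoform, with a log2 fold change of 1.68. That value rested on 29.3 CPM in IL-33 replicate 7, since without that tumor it was −0.02. Map2k6, a kinase upstream of p38, was at 0.51, Mapk11 at −0.37 and Mapk12 at −0.24, and none of these passed. Without IL-33 replicate 7 they were at 0.27, −0.31 and −0.12, Map2k6 having 8.43 CPM in that tumor and at most 3.63 CPM in the other IL-33 tumors. Mapk14, the most widely expressed p38 gene, was at 0.04 with an SE of 0.10. Gata3 was a rare transcript, between 1.88 and 5.21 CPM over all tumors, with a log2 fold change of 0.10 and an SE of 0.25, and 0.22 without IL-33 replicate 7.

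Enzymes known to cleave IL-33 were also counted. Of 6 protease genes, 1 passed an unadjusted p of 0.05, beside 11.2% of all genes, none passed an adjusted p, and the median log2 fold change was −0.57. The gene that passed was Elane, neutrophil elastase, at a log2 fold change of 2.95 with an SE of 1.10 and 2.77 without IL-33 replicate 7. It had only 90 counts in all 16 tumors together, with at most 0.148 CPM in a vehicle tumor and 1.70 CPM in an IL-33 tumor. Prtn3 was at 0.83, Ctsg at −0.76 and Tpsb2 at −0.83, with SEs of 0.87 or more. Without IL-33 replicate 7 they were at 0.45, −0.75 and −1.50.

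Among transcripts of the type 2 response, which IL-33 is known to drive, those of the cytokines and of eosinophils were near absent. Areg, Chil3, Arg1 and Ccl11 were above 1 CPM in every tumor. Ccl11 lay between 2.53 and 36.7 CPM with vehicle and between 1.95 and 22.9 CPM with IL-33. Of 16 type 2 response genes, Il4, Il5, Il9, Il13 and Epx had fewer than 10 counts over the 16 tumors and were not tested, Il9 having 0 counts, which allows up to 3 counts. Of the 11 genes tested 1 passed an unadjusted p of 0.05, beside 11.2% of all genes, and the median log2 fold change was −0.09. The gene that passed was Prg2, eosinophil major basic protein, at 2.87 with an SE of 1.11, from 100 counts in all and at most 1.60 CPM in a tumor. Il5ra was at −1.65, Siglecf at −0.88 and Ccl24 at 0.35. Areg, which encodes amphiregulin, was the most abundant of the list, between 72.7 and 118 CPM in the vehicle group and up to 230 CPM in the IL-33 group, with 11.6 CPM in IL-33 replicate 7 and a log2 fold change of 0.32 with an SE of 0.42, and 0.50 with an SE of 0.29 without that tumor. The macrophage genes Chil3, which encodes a chitinase-like protein, and Arg1, which encodes arginase, had medians of 62.8 and 17.5 CPM with vehicle and 54.8 and 18.5 CPM with IL-33, and their log2 fold changes were −0.13 with an SE of 0.42 and −0.09 with an SE of 0.45.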

How the data were processed

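RNA was poly(A)-selected by the authors, and a company sequenced the libraries. The authors deposited raw read counts per gene for each tumor, without normalization, and the submitters' processing notes name HISAT2, featureCounts and mm10. Annotation, strand use and their test were not given in the sources used here.

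The 22298 identifiers were matched to GENCODE M21 (GRCm38), which gave 22255 a symbol. Genes whose counts summed to 10 or more over all 16 tumors were tested with edgeR 4.0.16 (R 4.3.3), using TMM factors, glmQLFit, glmQLFTest and Benjamini-Hochberg adjustment over all genes. Members were also tested by two-sided exact permutation of log2(CPM + 0.5), for which 0.0002 is the smallest p. Correlations used log2 CPM (prior count 2, TMM scaling). Marker scores were means of log2 CPM over the tested genes of a list. The tests were checked on simulated counts.

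The genes, the lists and the tests were chosen with earlier results of these data known. Named genes were all members, their 5 closest genes by Spearman correlation, and in each pathway list the 2 highest and 2 lowest log2 fold changes and any with an unadjusted p under 0.05. Nfkbia, Mapk14, Gata3, Areg, Chil3, Arg1, Ccl11, Il1r2 and single marker genes were named outside this rule, after their values were seen. Cell marker lists are given by counts and sums. Some genes chosen for the protease list are not reported here, and its counts are without them. Alternatives were DESeq2 1.42.0, limma 3.58.1 voom with sample weights, upper-quartile and total-count scaling, other filters, a replicate block, and leaving out each tumor. Chi-square comparison of the 56 within-group pairs of libraries found no duplicate (lowest chi-square per degree of freedom 8.79). The lowest count of a member in a tumor was 67, so counting error is small beside the spread between tumors.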

Additional observations from a re-analysis of the deposited data

Results flagged for a closer look

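In 16 groups of 8 tumors (8 genes in 2 treatments), the CPM of the highest and lowest tumor was compared with the rest by Dixon's gap test, which chance alone passes in about 1 of 20 groups. All 3 tumors set apart were vehicle replicate 4. Its Irak1 level was 40.5 CPM, below 95.6 to 141 CPM in the other 7 vehicle tumors. Its Irak4 level was 5.80 CPM, below 10.7 to 14.04 CPM, and its Sigirr level was 130.4 CPM, above 48.9 to 62.8 CPM. The same library had a TMM factor of 0.64 and the lowest leukocyte sum (32.4 CPM), and the part of these in the values was not tested. The gap test used CPM without TMM factors. With them, log2 CPM in this library was 5.99 for Irak1, beside 6.51 to 7.12 in the other 7 vehicle tumors. It was 3.20 for Irak4, beside 3.39 to 3.77, and 7.67 for Sigirr, beside 5.58 to 5.89. The gap test was not run on that scale. The low Il1rl1 level of IL-33 replicate 7 (37.1 CPM) did not pass this gap test, its gap being 0.412 of the range.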

How the results depend on the processing

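No gene of the pathway passed the adjusted p in any of the 25 fits. The unadjusted limma p of Il1rap with voom was 0.0371, at a log2 fold change of −0.33, and no other unadjusted p was under 0.05. Il1rl1, Il1rap, Myd88 and Traf6 kept their sign throughout, but not their size. Leaving out 1 tumor at a time gave log2 fold changes from −0.43 to −0.15 (without IL-33 replicate 7) for Il1rl1, from −0.46 to −0.22 (without IL-33 replicate 7) for Il1rap, from 0.10 (without IL-33 replicate 3) to 0.35 (without vehicle replicate 7) for Myd88, from 0.14 (without IL-33 replicate 6) to 0.33 for Traf6, from −0.33 (without IL-33 replicate 6) to 0.23 (without IL-33 replicate 7) for Il33, from −0.11 to 0.056 for Irak1, from −0.11 to 0.071 for Irak4 and from −0.61 to −0.09 (without vehicle replicate 4) for Sigirr. Il33 was at −0.082 and Sigirr at 0.0021 with voom. With total counts Irak1 was at 0.029 and Irak4 at 0.051, and the median of all genes shifted to 0.13. Irak1 was at 0.040 with DESeq2 without IL-33 replicate 7, and Sigirr at 0.059 without IL-33 replicate 7 and vehicle replicate 4, both chosen after seeing the data. The r of Il1rl1 with lymph node stroma, −0.71, was 5.1e-05 without IL-33 replicate 7.

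Against 1876 genes at an unadjusted p under 0.05, DESeq2 gave 691, filterByExpr 642, voom 966, and leaving out both tumors 659. Without 1 tumor the count ran from 651 (without IL-33 replicate 7) to 2163, and DESeq2 without IL-33 replicate 7 gave 678, with 1 gene at the adjusted p where edgeR gave 0. With the replicate number as a block the count was 318, Il33 was at −0.17, Il1rl1 at −0.56 and Irak1 at 0.0031. Same-numbered tumors had correlations from −0.35 to 0.41, 4 of 8 above 0.1, and 1 of 8 vehicle tumors correlated best with its own number, so the numbers were not taken as pairs. The causes of these changes were not tested. Depth limits the genes of few counts, such as Elane, Prg2 and the cytokine genes, rather than the 8.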
